A study of Mus musculus with 27 samples.

Results

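The 10 genes described here are Hmox1, Nqo1, Gclm, Gclc, Slc7a11, Gsr, Txnrd1, Srxn1, Osgin1 and Nfe2l2, which encode the transcription factor NRF2 itself and widely used targets of it in heme breakdown, glutathione supply and the thioredoxin system. They were chosen by name, with earlier results of these data known, so the choice was not independent of the values below. All 10 were found among the 54532 genes counted in mouse splenic B cells. The study asked what disulfiram (DSF), a drug given against alcohol dependence, does to the early response of B cells to a T-independent and a T-dependent stimulus. B cells of wild-type C57BL6 spleens were isolated by negative selection, so the cells themselves carried no antibody label, and were cultured for 3 h before RNA-seq of poly(A) RNA. In the first experiment there were 5 groups of 4 libraries each, namely unstimulated cells, cells with LPS, cells with LPS and 1 µM DSF, cells with IL-4 and anti-CD40, and cells with IL-4, anti-CD40 and 1 µM DSF. The combination of IL-4 and anti-CD40 is written IL4CD40 below, as in the labels, and IL-4+anti-CD40 in the plots. LPS engages TLR4, and IL4CD40 stands in for T cell help. Cells without DSF, the unstimulated ones included, received the vehicle DMSO. The second experiment had 1 library per condition and added 1 µM ibrutinib, an inhibitor of Bruton's tyrosine kinase, under each stimulus. The paper's legends call cells given DSF or ibrutinib pre-treated and count the 3 h from stimulation. How long before the stimulus the drug was given is not stated in the sources used here. There was no culture with DSF but without a stimulus, so every effect of DSF below is an effect in stimulated cells. The age and sex of the mice that gave these B cells, and which mouse gave which library, are not stated in the sources used here, and p-values measure the spread between these libraries.

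NRF2, the product of Nfe2l2, is held in the cytoplasm and handed to the proteasome by KEAP1 with the ligase scaffold CUL3. Electrophiles and oxidants modify cysteines of KEAP1, NRF2 then accumulates, pairs with small MAF proteins and binds antioxidant response elements, where the repressor BACH1 can also sit. Its targets make and recycle glutathione, keep thioredoxin reduced, detoxify quinones and break down heme, and in B cells heme and BACH proteins also bear on plasma cell formation.

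Before the values, the libraries need description. All 10 B cell markers looked at were above 1 CPM in each of the 12 conditions, and their summed level was 7640 to 17700 CPM in the first experiment. CPM here is a count scaled to library size with TMM factors. Total counts per library were 17804851 to 23632992 (first experiment) or 16049295 to 24619776 (second). In 2 groups the replicates stood 2 against 2. Over all genes, the chi-square per gene between unstimulated replicates 1 and 2 was 2.86 and between 3 and 4 it was 6.64, but between the pairs it was 84.8 to 90.7. Among the libraries with IL4CD40 alone it was 3.49 and 6.41 within and 15.6 to 27.2 between the pairs 1, 2 and 3, 4. No 2 libraries agreed within sampling noise. The unstimulated pairs also differed in the summed markers of B cells (11500 and 11600 against 17700 and 16900 CPM), neutrophils (69.1 and 69.5 against 16.8 and 21.2 CPM) and erythroid cells (4.09 and 3.9 against 34.4 and 38.1 CPM). With IL4CD40 alone, these sums differed little between the pairs (neutrophil markers 11.9 to 14.4 CPM, erythroid markers 2.1 to 3.3 CPM), whereas the heat shock gene Hspa1b, looked at after its values were seen, stood at 15.7, 22.6, 181 and 688 CPM in replicates 1 to 4. Hspa1a (9.54, 14.8, 105 and 410 CPM) and Mt1 (1.65, 5.23, 70.2 and 86.7 CPM), looked at likewise, split in the same way. Replicates 3 and 4 with LPS alone were also the higher ones, for Hspa1b at 20.8, 16.2, 42.5 and 38.5 CPM and for Mt1 at 2.65, 2.41, 28.8 and 16.2 CPM. DSF libraries had Hspa1b at 4240 to 5440 CPM with LPS and 3440 to 4630 CPM with IL4CD40. Macrophage and monocyte markers, of which 7 or 8 of 14 were above 1 CPM in stimulated groups and none was at 0, summed to 161 to 187 CPM with LPS and 187 to 198 CPM with LPS and DSF, and to 183 to 205 CPM and 251 to 308 CPM with IL4CD40 without and with DSF. Summed neutrophil markers (5 of 9 above 1 CPM) went from 16 to 18.3 CPM to 20 to 23.1 CPM when DSF was added to LPS and from 11.9 to 14.4 CPM to 15.7 to 18.8 CPM when it was added to IL4CD40, where Ly6g was at 0. Dendritic cell markers (4 or 5 of 6 above 1 CPM, none at 0) summed to 278 to 294 CPM against 393 to 441 CPM with LPS, and to 112 to 136 CPM against 127 to 165 CPM with IL4CD40. With LPS most of this sum was Bst2, which rose from 213 to 229 CPM to 306 to 355 CPM with DSF. Zbtb46 also rose there, from 44.4 to 50.4 CPM to 74.9 to 80 CPM. Siglech fell from 2.35 to 2.84 CPM to 0.566 to 1.67 CPM and Flt3 from 10.1 to 11.3 CPM to 8.01 to 9.19 CPM, and Xcr1 and Clec9a overlapped. Erythroid markers were at 3.11 to 4.57 against 4.79 to 6.74 CPM with LPS and at 2.1 to 3.3 against 3.83 to 4.79 CPM with IL4CD40, while B cell markers were lower with DSF, at 7640 to 8450 against 8820 to 9250 CPM and 8760 to 8980 against 9910 to 11400 CPM. In the single libraries of the second experiment, B cell markers were instead higher with DSF (13800 against 10000 CPM with LPS, 12700 against 10200 CPM with IL4CD40), dendritic cell markers were lower (169 against 185 CPM and 180 against 189 CPM), and macrophage and monocyte markers were higher (407 against 286 CPM and 361 against 223 CPM). The part of these differences in the results was not tested. In bulk libraries, fewer cells of a type and less RNA per cell cannot be told apart.

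Promoter windows were available for 7 of the 10 genes, and those in which a searched motif was found are shown because the members moved together with DSF. RefSeq windows (GRCm38.p6, 250 bases before to 50 after each annotated start, read 5′ to 3′ on the gene's own strand) were searched on both strands. The antioxidant response element core TGACNNNGC was found in 4 of the 9 windows of these 7 genes (in Gclm, Srxn1, Nfe2l2 and 1 of 3 windows of Txnrd1) and in 12.4% of the 32851 windows of the table. The longer core, in which an A follows, was found in 1 of the 9 windows, of Txnrd1, and in 3.04% of all windows. The AP-1 site TGANTCA was found in 2 of the 9, of Srxn1 and Osgin1, and in 7.81% of all windows. It can share bases with the element's core, and no AP-1 match shared bases with a TGACNNNGC match here. A core with G in place of the C before NNN was not searched. The second AP-1 match of Srxn1, TGAGTCA, is followed by gc, which would complete such a core. The heat shock unit GAANNTTC was in 0 of the 9 member windows and in 7.86% of all windows. The amino acid response element TGATGCAA, searched only after the values of Slc7a11 were seen, was in the Slc7a11 window on each strand and in 0.895% of all windows. Matched bases are in capitals, and a match is a description of the letters, not of a bound site. Nqo1 and the first and last of the 3 Txnrd1 windows held no match. Bases outside the windows were not searched, so a window without a match does not show that the gene lacks such an element. The downstream end of each window was found in a GENCODE vM21 transcript of its gene except for Nfe2l2, whose direction was therefore not checked in this way.
Srxn1 (chr2:152105274-152105573, plus strand): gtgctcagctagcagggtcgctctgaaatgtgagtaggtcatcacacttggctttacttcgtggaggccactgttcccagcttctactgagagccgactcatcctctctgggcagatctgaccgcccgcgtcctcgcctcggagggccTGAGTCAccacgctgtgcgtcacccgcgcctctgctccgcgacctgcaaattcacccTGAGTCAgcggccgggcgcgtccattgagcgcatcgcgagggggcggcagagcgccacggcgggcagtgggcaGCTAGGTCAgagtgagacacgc
Gclm (chr3:122245307-122245606, plus strand): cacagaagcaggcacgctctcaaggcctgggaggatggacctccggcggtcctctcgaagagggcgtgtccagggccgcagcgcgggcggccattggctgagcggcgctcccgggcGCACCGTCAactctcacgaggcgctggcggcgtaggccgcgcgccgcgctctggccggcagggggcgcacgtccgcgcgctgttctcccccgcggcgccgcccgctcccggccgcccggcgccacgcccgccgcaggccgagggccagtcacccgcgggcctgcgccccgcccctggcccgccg
Txnrd1, the second window (chr10:82858956-82859255, plus strand): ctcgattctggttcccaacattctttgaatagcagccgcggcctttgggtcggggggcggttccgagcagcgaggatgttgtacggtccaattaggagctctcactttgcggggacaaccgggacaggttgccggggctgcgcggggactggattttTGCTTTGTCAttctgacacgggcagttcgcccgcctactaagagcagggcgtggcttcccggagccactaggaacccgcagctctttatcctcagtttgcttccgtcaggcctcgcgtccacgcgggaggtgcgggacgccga
Osgin1 (chr8:119436897-119437196, plus strand): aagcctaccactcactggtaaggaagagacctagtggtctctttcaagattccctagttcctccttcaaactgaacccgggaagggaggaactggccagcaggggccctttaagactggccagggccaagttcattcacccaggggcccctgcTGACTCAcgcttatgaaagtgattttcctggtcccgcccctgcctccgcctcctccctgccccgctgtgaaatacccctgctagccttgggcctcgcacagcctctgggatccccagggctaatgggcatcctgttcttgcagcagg
Nfe2l2 (chr2:75704614-75704913, minus strand): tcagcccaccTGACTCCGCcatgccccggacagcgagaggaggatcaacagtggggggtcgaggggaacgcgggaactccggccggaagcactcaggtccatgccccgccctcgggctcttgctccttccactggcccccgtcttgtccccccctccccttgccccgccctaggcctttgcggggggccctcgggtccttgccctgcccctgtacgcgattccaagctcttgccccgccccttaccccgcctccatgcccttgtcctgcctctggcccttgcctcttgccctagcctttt
Slc7a11 (chr3:50443564-50443863, minus strand): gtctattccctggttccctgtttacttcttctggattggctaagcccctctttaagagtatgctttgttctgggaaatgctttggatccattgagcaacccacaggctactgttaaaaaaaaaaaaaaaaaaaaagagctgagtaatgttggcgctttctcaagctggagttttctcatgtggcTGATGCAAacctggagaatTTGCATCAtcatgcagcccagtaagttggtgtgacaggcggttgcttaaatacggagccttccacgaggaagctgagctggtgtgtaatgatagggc
In Srxn1 the AP-1 matches began 102 and 45 bases before the annotated start, in Osgin1 97 bases before it, and the element core of Gclm began 134 bases before it.

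All 10 genes were higher with DSF under each stimulus. With LPS the increases ran from 2.29-fold (Gsr) to 127-fold (Hmox1), and with IL4CD40 from 2.8-fold (Txnrd1) to 15.1-fold (Hmox1), each with 4 against 4 libraries. All 10 passed an adjusted p of 0.05 (edgeR's quasi-likelihood test, Benjamini-Hochberg over all genes tested) in each comparison. Of all genes tested, 35.1% were called higher and 36% lower with DSF under LPS, and 30.1% higher and 31.6% lower under IL4CD40. Every DSF library lay above every library of the same stimulus alone for all 10 genes under each stimulus, which held for 30.3% and 30.6% of all genes tested. For 9 of the 10 genes, every DSF library was also above each of the 12 libraries without DSF, the unstimulated ones included. The exception was Slc7a11, which reached 63.8 CPM with LPS alone and fell as low as 26.4 CPM in a library with IL4CD40 and DSF.

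**Figure D1:**
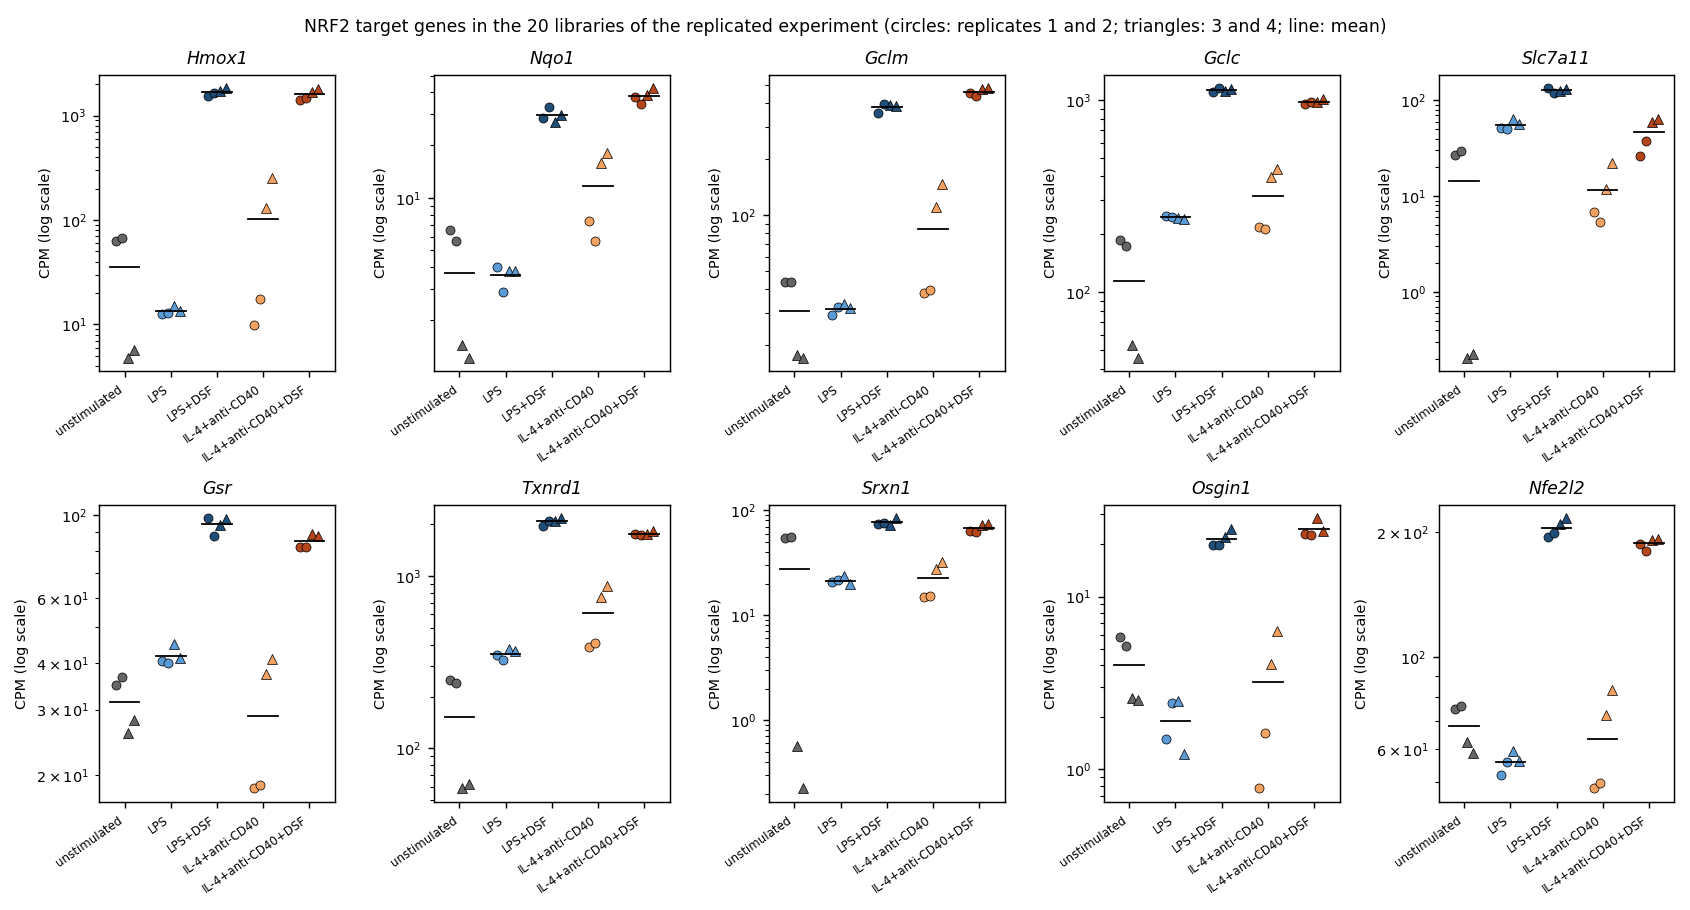
CPM (TMM-scaled, log axis) of each of the 10 genes in the 20 libraries of the first experiment, with 1 point per library, circles for replicates 1 and 2, triangles for replicates 3 and 4, and a line at the mean of 4. The DSF groups sit highest for 9 genes, and the unstimulated and IL4CD40 groups split into pairs, as for Srxn1 at 54.0 and 55.5 against 0.573 and 0.225 CPM in unstimulated cells.

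Hmox1 (ENSMUSG00000005413, mm10 chromosome 8, 75093621 to 75100589, plus strand) encodes the inducible heme oxygenase, which opens heme into biliverdin, iron and carbon monoxide. With LPS alone it stood at 12.7, 12.7, 14.9 and 13.4 CPM in replicates 1 to 4, and with LPS and DSF at 1558, 1637, 1719 and 1838 CPM. These groups lay far apart and each was tight. The log2 fold change was 6.99 (SE 0.0649, adjusted p = 1.29e-29). With IL4CD40 alone its levels were 9.77, 17.7, 129 and 252 CPM, and with DSF added 1418, 1484, 1689 and 1804 CPM. The DSF libraries were alike, and the vehicle libraries ranged over more than an order of magnitude. Here the log2 fold change was 3.92 (SE 0.804, adjusted p = 0.0013), and it was 4.88 (adjusted p = 8.58e-05) without replicate 4 of IL4CD40 and 6.66 (adjusted p = 1.75e-19) without replicates 3 and 4 of every group. In unstimulated cells Hmox1 was at 63.2, 66.7, 4.79 and 5.72 CPM, so replicates 1 and 2 were above, and 3 and 4 below, all libraries with LPS alone.

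Gclm and Gclc encode the modifier and catalytic subunits of glutamate-cysteine ligase, which carries out the first and limiting step of glutathione synthesis. Gclm (ENSMUSG00000028124, chromosome 3, 122245557 to 122270732, plus strand) was at 29.3 to 33.2 CPM with LPS and at 356 to 397 CPM with LPS and DSF (log2 fold change 3.62, SE 0.049, adjusted p = 2.75e-26). With IL4CD40 alone it was at 38.4, 39.6, 111 and 147 CPM, and with DSF at 438 to 484 CPM (log2 fold change 2.41, SE 0.37, adjusted p = 0.000167). The vehicle libraries again formed pairs, and the highest of them was less than any DSF library. Exons of Gclm share 244 bases with the pseudogene Gm6061 on the same strand and 296 bases with Gm17494 on the other strand (GENCODE vM21), and the strand setting of the counting is not given in the sources used here. Gclc (ENSMUSG00000032350, chromosome 9, 77754535 to 77794485, plus strand) stood at 241 to 249 CPM with LPS, at 1101 to 1153 CPM with LPS and DSF, at 219, 212, 399 and 438 CPM with IL4CD40, and at 949 to 1010 CPM when DSF was added. Its log2 fold changes were 2.22 (SE 0.0393, adjusted p = 3.63e-24) and 1.57 (SE 0.206, adjusted p = 5.26e-05). The modifier subunit thus changed by more than the catalytic one under each stimulus, a difference that was not itself tested.

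Slc7a11 (ENSMUSG00000027737, chromosome 3, 49892526 to 50443614, minus strand) encodes the light chain of the cystine/glutamate exchanger, which brings in cystine for glutathione. With LPS alone it was at 52.1, 50.1, 63.8 and 56.9 CPM, and with IL4CD40 alone at 6.79, 5.42, 11.9 and 22.4 CPM. Every LPS library was above every IL4CD40 library, and the log2 fold change of LPS over IL4CD40 was 2.28 (SE 0.33, adjusted p = 0.00017). DSF took it to 135, 119, 124 and 133 CPM with LPS (log2 fold change 1.22, SE 0.0604, adjusted p = 3.05e-15), and to 26.4, 37.8, 59.5 and 63.6 CPM with IL4CD40 (log2 fold change 1.96, SE 0.398, adjusted p = 0.00119). With all 20 libraries in a single fit, the former change was 1.2 with an adjusted p of 0.149. The unstimulated libraries read 725, 762, 5 and 5 counts, or 27.2, 29.5, 0.205 and 0.225 CPM, a wider split than in any other of the 10 genes except Srxn1.

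Gsr (ENSMUSG00000031584, chromosome 8, 33652523 to 33698163, plus strand) encodes glutathione reductase, which returns oxidized glutathione to its reduced form. Its levels were 40.2 to 45 CPM with LPS, 88.2 to 98.2 CPM with LPS and DSF, and 82.2 to 88.9 CPM with IL4CD40 and DSF. With IL4CD40 alone the 4 libraries were at 18.4, 18.8, 37.5 and 41.0 CPM. Its increases with DSF, at log2 fold changes of 1.2 (SE 0.0518, adjusted p = 1.85e-16) and 1.51 (SE 0.224, adjusted p = 0.00013), were the lowest of the 10 genes with LPS and among the lower ones with IL4CD40.

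In the thioredoxin system, Txnrd1 (ENSMUSG00000020250, chromosome 10, 82833951 to 82897712, plus strand) encodes the cytosolic thioredoxin reductase. It was at 328 to 379 CPM with LPS and 1961 to 2171 CPM with LPS and DSF (log2 fold change 2.57, SE 0.0477, adjusted p = 9.38e-24). With IL4CD40 alone it read 388, 409, 759 and 877 CPM, and with DSF 1736 to 1839 CPM (log2 fold change 1.49, SE 0.225, adjusted p = 0.000146). Srxn1 (ENSMUSG00000032802, chromosome 2, 152105516 to 152111376, plus strand) encodes sulfiredoxin, which restores over-oxidized peroxiredoxins. It was at 20.001 to 23.4 CPM with LPS and 72.7 to 83.8 CPM with LPS and DSF (log2 fold change 1.86, SE 0.0603, adjusted p = 5.46e-19). With IL4CD40 its libraries read 15.0, 15.4, 27.6 and 32.5 CPM, and with DSF 62.7 to 73.9 CPM (log2 fold change 1.53, SE 0.212, adjusted p = 7.54e-05, and 1.59 with an adjusted p of 0.0828 when all 20 libraries were fitted together). Its unstimulated libraries held 1439, 1436, 14 and 5 counts. Unstimulated replicates 1 and 2, at 54.0 and 55.5 CPM, thus came close to the lowest DSF library at 62.7 CPM.

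Nqo1 (ENSMUSG00000003849, chromosome 8, 107388225 to 107403206, minus strand) encodes a quinone reductase and is a standard readout of NRF2. It was at 2.89 to 4.04 CPM with LPS and 27.1 to 33.1 CPM with LPS and DSF (log2 fold change 3.05, SE 0.104, adjusted p = 1.37e-18). With IL4CD40 it rose from 7.39, 5.70, 15.8 and 18.1 CPM to 34.5 to 42.4 CPM (log2 fold change 1.66, SE 0.287, adjusted p = 0.000399). Osgin1 (ENSMUSG00000074063, chromosome 8, 119434124 to 119446256, plus strand), which encodes an oxidative stress-induced growth inhibitor, was near the limit of these counts with LPS alone, at 1.49, 2.41, 2.47 and 1.23 CPM or 22 to 55 counts. DSF took it to 19.8 to 24.5 CPM with LPS (log2 fold change 3.5, SE 0.145, adjusted p = 7.25e-17). With IL4CD40 it was at 0.78, 1.62, 4.07 and 6.35 CPM without and 22.8 to 28.3 CPM with DSF (log2 fold change 2.9, SE 0.405, adjusted p = 8.2e-05).

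Nfe2l2 (ENSMUSG00000015839, chromosome 2, 75675513 to 75704641, minus strand), the gene of NRF2 itself, also rose with DSF. Its levels were 51.9 to 59.2 CPM with LPS and 195 to 216 CPM with LPS and DSF (log2 fold change 1.89, SE 0.0462, adjusted p = 1.68e-21). With IL4CD40 it went from 48.3, 49.6, 72.3 and 83.3 CPM to 179 to 193 CPM (log2 fold change 1.51, SE 0.147, adjusted p = 6.59e-06). NRF2 is controlled mainly through protein stability, so the RNA level is not a measure of its activity.

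**Figure D2:**
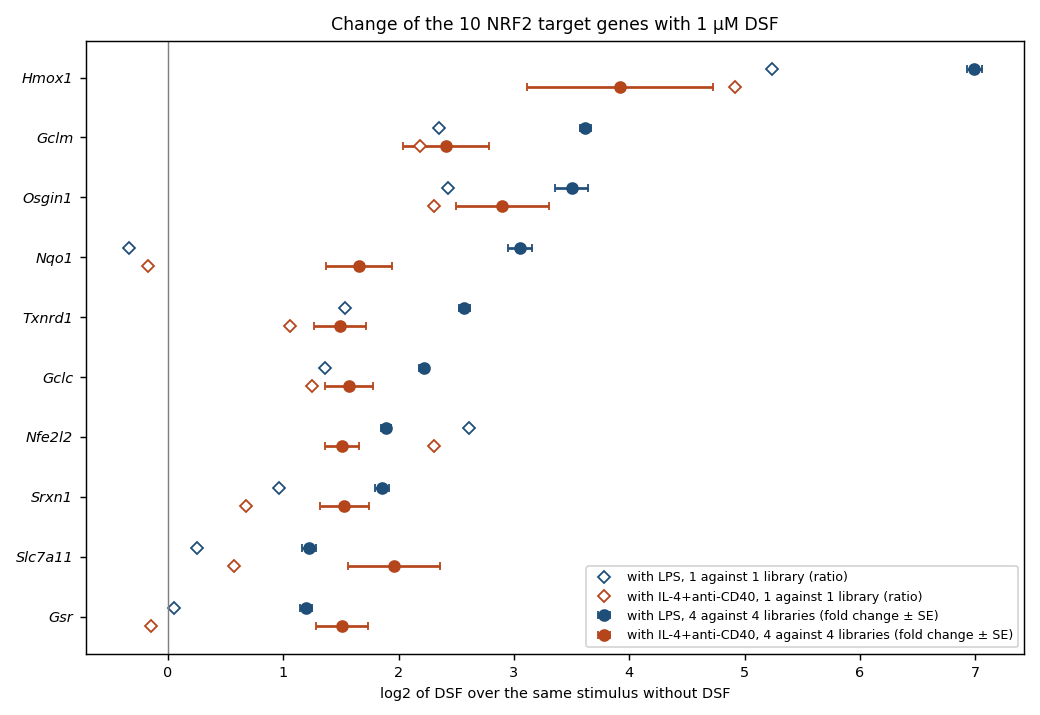
Change of each gene with 1 µM DSF against the same stimulus alone, as log2 fold change with its standard error in the first experiment (filled circles, 4 against 4 libraries) and as log2 ratio of 1 library to 1 in the second (open diamonds), in blue with LPS and in red with IL4CD40. All filled circles lie to the right of 0, the error bars are wider with IL4CD40, and Nqo1 has diamonds left of 0, at -0.34 and -0.17.

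The spread between replicates was itself uneven over the groups. With LPS alone, with LPS and DSF, and with IL4CD40 and DSF, the 10 genes had median ratios of the highest to the lowest library of 1.16, 1.12 and 1.14, close to the 1.13, 1.16 and 1.17 of all genes. In unstimulated cells this median was 4.18 for the 10 genes and 1.34 for all genes, and with IL4CD40 alone it was 2.72 and 1.21. Among genes averaging 50 counts or more in the group, a range of 2-fold or more was seen in 8 of the 10 members in unstimulated cells (14.8% of all genes) and in 9 of 10 with IL4CD40 alone (4.1%), but in 0 of 9 with LPS alone (0.649%), 0 of 10 with LPS and DSF (0.744%) and 1 of 10, Slc7a11, with IL4CD40 and DSF (1.75%). In unstimulated cells all 10 genes were higher in replicates 1 and 2 than in 3 and 4, and with IL4CD40 alone all 10 were higher in replicates 3 and 4 than in 1 and 2. What set the pairs apart was not tested.

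The difference of the DSF effect between the stimuli asks whether a gene rose more with DSF under LPS than under IL4CD40. It was positive and past the threshold for 4 of the 10 genes (7.92% of all genes tested) and negative and past it for 0 (6.96%). The differences in log2 fold change were 3.06 for Hmox1 (SE 0.817, adjusted p = 0.0149), 1.39 for Nqo1 (SE 0.341, adjusted p = 0.00878), 1.21 for Gclm (SE 0.388, adjusted p = 0.0424) and 1.08 for Txnrd1 (SE 0.239, adjusted p = 0.00429). For Hmox1 the levels reached with DSF were near each other under the 2 stimuli, with means of 1688 and 1599 CPM, and the vehicle levels were not, with means of 13.4 and 102 CPM. For Txnrd1 the DSF level was higher with LPS than with IL4CD40, at means of 2085 against 1772 CPM, with no overlap of the libraries. For Nqo1 and Gclm the DSF level was lower with LPS than with IL4CD40, at means of 29.6 against 38.4 CPM and 383 against 462 CPM, with no overlap of the libraries. Without replicates 3 and 4 of every group, the difference was 0.33 for Hmox1 (adjusted p = 0.261), 0.78 for Nqo1 (adjusted p = 0.0103) and 0.19 for Gclm (adjusted p = 0.24). In a single fit of all 20 libraries 0 of the 10 passed. Few genes did so there, 205 of 15575 tested being higher and 710 lower, against 1199 and 1053 of 15130 in the main fit. Leaving out replicate 4 of IL4CD40 took Hmox1 to 2.11 (adjusted p = 0.0266), and Gclm lost its call in 14 of the 16 fits that left out 1 library (adjusted p 0.0592 to 0.0919).

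What the stimuli did by themselves rests on the unstimulated and IL4CD40 libraries that split into pairs. LPS against unstimulated cells put 2 genes higher, Txnrd1 (log2 fold change 1.22, SE 0.471, adjusted p = 0.0474) and Gsr (0.41, SE 0.112, adjusted p = 0.0106), where 29.6% of all genes tested were higher. It put 2 lower, Osgin1 (-1.08, SE 0.358, adjusted p = 0.0265) and Nfe2l2 (-0.29, SE 0.0925, adjusted p = 0.0238), where 33.3% of all genes were lower. Without replicates 1 and 2 of every group, 8 of the 10 were higher and 0 lower, and without replicates 3 and 4, 4 were higher and 6 lower. The shares of all genes were not counted in these fits, so these counts describe the dependence on the libraries only. Txnrd1 lost its call without unstimulated replicate 3 or 4 or any LPS replicate (6 of 8 fits, adjusted p 0.0718 to 0.0902), Osgin1 without unstimulated replicate 1 or 2 or LPS replicate 1 or 4 (adjusted p 0.0658 to 0.075), and Nfe2l2 without unstimulated replicate 1 or 2 or LPS replicate 1, 2 or 4 (adjusted p 0.0564 to 0.0844).

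IL4CD40 against the same unstimulated libraries put 4 genes higher, and 30.4% of all genes tested, and 0 lower, against 32.1% of all genes. The 4 were Txnrd1 (log2 fold change 2.04, SE 0.533, adjusted p = 0.00842), Nqo1 (1.7, SE 0.592, adjusted p = 0.0315), Gclc (1.52, SE 0.487, adjusted p = 0.022) and Gclm (1.49, SE 0.508, adjusted p = 0.0286). Without replicates 1 and 2 of every group all 10 were higher, and without replicates 3 and 4 only 2 were higher and 6 were lower, again with no share of all genes to set beside them. Nqo1 and Gclm lost their calls without unstimulated replicate 3 or 4 or IL4CD40 replicate 3 or 4 (adjusted p 0.0594 to 0.0876), and Gclc without unstimulated replicate 3 or IL4CD40 replicate 3 or 4 (adjusted p 0.0524 to 0.0583). Set directly against IL4CD40, LPS put Slc7a11 higher, as given above (22.3% of all genes tested), and 4 genes lower (17.3%). These were Hmox1 (-2.91, SE 0.817, adjusted p = 0.0141), Nqo1 (-1.69, SE 0.338, adjusted p = 0.00189), Gclm (-1.4, SE 0.375, adjusted p = 0.0108) and Txnrd1 (-0.77, SE 0.223, adjusted p = 0.0172). Without replicates 3 and 4 of every group Hmox1 was at -0.11 (adjusted p = 0.654), without IL4CD40 replicate 4 it was at -1.95 (adjusted p = 0.0236), and Txnrd1 lost its call without LPS replicate 2 or IL4CD40 replicate 3 (adjusted p 0.0528 and 0.0517) and in the fit of all 20 libraries (0.113). With the replicate number as a block, Hmox1 was at -2 and did not pass (adjusted p = 0.0526). Gsr, at 0.54 (adjusted p = 0.0804), did not pass, but came to pass at 0.53 in the fit of all 20 libraries (adjusted p = 0.0382), at 0.62 with the block (adjusted p = 0.0254) and at 0.75 without IL4CD40 replicate 4 (adjusted p = 0.00693).

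Levels of different genes were compared by the deposited FPKM, which divide by gene length. In unstimulated cells the order differed between the pairs of replicates. Gclc led in replicates 1 and 2 at 49.2 and 45.8 FPKM, followed by Hmox1 (36.01 and 37.9 FPKM) and Txnrd1 (35.3 and 33.6 FPKM), whereas Nfe2l2 led in replicates 3 and 4 at 16.2 and 15.03 FPKM, followed by Gclc (13.9 and 11.8 FPKM), with Hmox1 at 2.69 and 3.18 FPKM. With LPS alone Gclc (63.7) and Txnrd1 (49.1) led by mean FPKM and Hmox1 (7.51) came after Gsr and Nfe2l2. With DSF, Hmox1 was first under each stimulus at mean FPKM of 943 and 897, ahead of Gclc (293 and 255) and Txnrd1 (288 and 246). Slc7a11 and Osgin1 were the 2 lowest with DSF, at mean FPKM of 8.98 and 7.9 with LPS and 3.3 and 9.01 with IL4CD40.

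Beside the 10 genes, 104 redox genes were grouped in 6 lists. Their values here are those of the first experiment, and some differed in the second, of which examples are given with it below. A gene that passes the filter on low counts only in the group where it is high has to differ, so the counts and medians of the lists cover genes that passed it both in the DSF libraries and in the vehicle libraries taken alone, as all 10 members did. They are to be read against the 35.1% of all genes called higher and 36% called lower with DSF under LPS, and 30.1% and 31.6% under IL4CD40. Genes of heme breakdown and iron storage had a median log2 fold change with DSF of 1.38 with LPS and 1.19 with IL4CD40, where all genes tested had medians of 0 and -0.02. In this list 5 of 8 genes were called higher and 2 lower with LPS, and 6 of 8 higher and 2 lower with IL4CD40. Fth1, the ferritin heavy chain, rose from a mean of 781 to 6868 CPM with LPS and from 683 to 5232 CPM with IL4CD40. Ftl1, the ferritin light chain, rose by log2 fold changes of 2.68 and 1.97, and Slc48a1, a heme transporter, by 2.46 and 2.13. Slc40a1, the iron exporter ferroportin, passed the filter only in the libraries with IL4CD40 and DSF, at a mean of 1.38 against 0.204 CPM. Hmox2, the constitutive heme oxygenase, fell by 0.74 and 0.4 on the log2 scale, and Blvra, a biliverdin reductase, fell by 0.62 and 0.61. The other biliverdin reductase of the list, Blvrb, rose by 1.34 and 1.65, from means of 16.2 and 10.9 CPM to 40.4 and 35.5 CPM, and is named here after its values were seen.

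Of the detoxification list, 7 of 15 genes rose and 4 fell with LPS (median 0.11), and 9 of 16 rose and 4 fell with IL4CD40 (median 0.54). Sqstm1, the autophagy adaptor p62 that also binds KEAP1, rose from a mean of 574 to 5922 CPM with LPS and from 694 to 3656 CPM with IL4CD40. Pir and Cbr3 passed the filter only in the DSF libraries, Pir at means of 0.916 against 0.095 CPM with LPS and 0.96 against 0.117 CPM with IL4CD40, and Cbr3 at 1.5 against 0.209 CPM and 3.16 against 0.938 CPM. Ptgr1, a prostaglandin reductase, rose by log2 fold changes of 2.05 and 2.27. Ptgr2 and Akr7a5 fell under each stimulus. In the glutathione list, 11 of 22 genes were higher and 8 lower with LPS (median 0.32), and 10 of 22 higher and 8 lower with IL4CD40 (median 0.14), so genes moved in each direction. In it Slc3a2, the heavy chain that pairs with Slc7a11, rose by 2 (adjusted p = 4.93e-22) and 1.41, and the glutathione transferases Gstt2 and Gstm1 rose by 2.65 and 1.34 with LPS and 1.67 and 2.13 with IL4CD40. Glrx5, a mitochondrial glutaredoxin of iron-sulfur cluster assembly, fell by 1.1 and 1.08, and Gstz1 fell by 0.75 and 1.18. Ggt5 passed the filter only in the libraries with IL4CD40 and DSF, at a mean of 0.654 against 0.145 CPM.

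Among thioredoxin and peroxiredoxin genes, 5 of 17 rose and 6 fell with LPS, and 5 rose and 5 fell with IL4CD40, with medians of -0.06 and 0.08. These shares lie near those of all genes. Those that rose most were Prdx1 (log2 fold changes 1.61 and 1.26) and Txn1 (1.43 and 1.22), the cytosolic peroxiredoxin and thioredoxin, while mitochondrial Txn2 fell by 0.52 and 0.49 and Txnrd3 by 0.45 and 0.6. Of 7 genes of NADPH supply, 2 rose and 3 fell with LPS, and 3 rose and 3 fell with IL4CD40, with medians of 0 and 0.11. Me1, malic enzyme, passed the filter only in the DSF libraries, at means of 1.33 against 0.0878 CPM with LPS and 1.51 against 0.2 CPM with IL4CD40. Taldo1 rose by 0.54 and 0.65, and Nadk, Pgls and Tkt fell under each stimulus.

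Of 15 regulators of NRF2, 10 rose and 3 fell with LPS, and of 14, 8 rose and 2 fell with IL4CD40, with medians of 0.2 and 0.22. Maff, a small MAF partner, rose most, by log2 fold changes of 4.67 and 2.78 (from 20.6 to 515 CPM and from 49.3 to 351 CPM). Mafg rose by 2.19 and 1.43, Mafk by 1.14 and 1.11, and the repressor Bach1 by 2.46 and 1.92. Keap1 fell by 0.38 with LPS (adjusted p = 8e-07) and was at 0.01 with IL4CD40 (adjusted p = 0.903). Cul3 and Rbx1 rose by 0.34 and 0.2 with LPS and by 0.3 and 0.23 with IL4CD40, Btrc, the recognition subunit of a KEAP1-independent ligase, fell by 0.62 and 0.42, and Dpp3, a protease that binds KEAP1, fell by 1.05 and 0.81. Bach2, a repressor important in B cells, rose by 0.18 and 0.71.

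**Figure D3:**
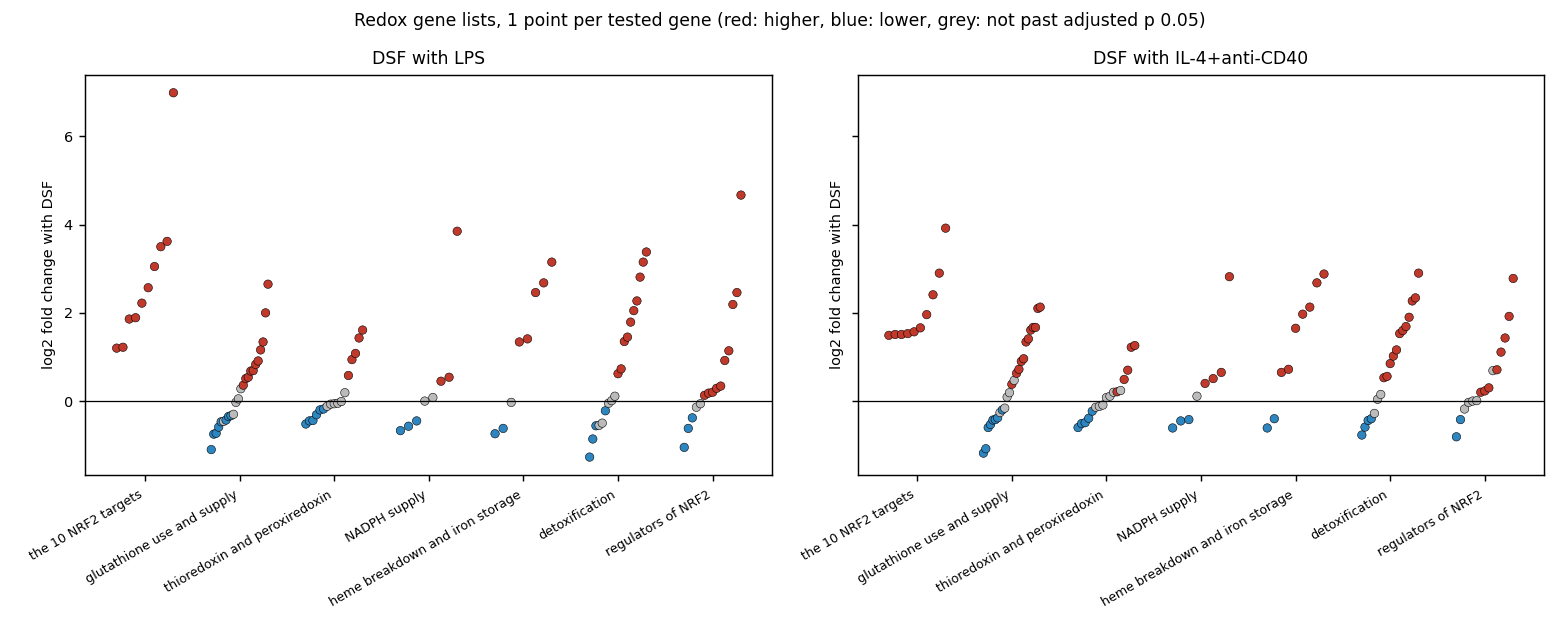
Log2 fold change with DSF of each tested gene in the 10 NRF2 targets and in 6 other redox lists, with LPS on the left and IL4CD40 on the right, coloured red where higher and blue where lower past an adjusted p of 0.05, and grey otherwise, genes that passed the filter in 1 group alone included. All points of the 10 targets are red, while the thioredoxin and peroxiredoxin list has 5 red and 6 blue points with LPS.

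The genes whose profile over the 20 libraries was most like that of each member were found by the root-mean-square difference of log2 CPM after centring each gene on its mean, among 15565 genes. Mafg was nearest to Gclc (0.231) and to Txnrd1 (0.338), and Gabarapl1, an autophagy gene, was nearest to Gclm (0.249). Hmox1 had no close neighbour, its nearest being the small heat shock gene Hspb1 (0.843), Efr3b (0.867) and Hspa1b (0.904). Srxn1 was nearest to Phldb1 (0.59), and Clec4e, a lectin receptor of myeloid cells, was among the 3 nearest to Srxn1 (0.705) and nearest to Slc7a11 (0.705), followed there by Il1r2 (0.742) and Acod1 (0.766). On deposited FPKM (log2 after adding 0.1), Il1r2 (0.514), Procr and Spp1 were instead the 3 nearest to Slc7a11, without Clec4e, Gprc5a (0.633) was nearest to Srxn1 and Uchl1 (0.377) to Nqo1, while the nearest gene was the same for the other 7. On log2 CPM, Anxa5 was nearest to Gsr (0.208), Washc2 to Nfe2l2 (0.12), Hpgds to Nqo1 (0.376) and Tnfrsf26 to Osgin1 (0.361). Among the 10 themselves, the most alike pairs were Gclc and Txnrd1 (0.234), Gsr and Nfe2l2 (0.31) and Nqo1 and Gclm (0.418), and the least alike were Hmox1 and Gsr (2.62).

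The second experiment had 1 library per condition, so its ratios carry no error between replicates and no test, and its counts have Poisson intervals that cover counting error only. Hmox1 was at 51.7 CPM with LPS (939 counts, 95% interval 879.9 to 1001) and 1960 CPM with LPS and DSF (33149 counts), and at 54.4 and 1652 CPM with IL4CD40 without and with DSF. Its log2 ratios were 5.24 and 4.92. Nfe2l2 (2.61 and 2.31), Osgin1 (2.43 and 2.31), Gclm (2.35 and 2.19), Txnrd1 (1.54 and 1.06) and Gclc (1.36 and 1.25) were also 2-fold or more higher with DSF under each stimulus, so that 6 of the 10 were past 2-fold with LPS and 6 of 10 with IL4CD40. Of 14275 genes that averaged 10 counts or more, 20.3% were 2-fold or more higher and 19.5% lower with DSF under LPS, and 21.9% and 20.3% under IL4CD40. The other 4 genes were not past 2-fold. Srxn1 was at 24.9 and 48.4 CPM without and with DSF under LPS and at 19.5 and 31.3 CPM under IL4CD40 (log2 ratios 0.96 and 0.68), and Slc7a11 was at 11.4 and 13.6 CPM and at 5.73 and 8.59 CPM (0.25 and 0.57). Gsr had log2 ratios of 0.05 and -0.15. Nqo1 was at 15.8 and 12.5 CPM with LPS (288 counts, 255.7 to 323.3, and 211 counts, 183.5 to 241.5) and at 20.3 and 18.0 CPM with IL4CD40, log2 ratios of -0.34 and -0.17, whereas in the first experiment it had risen by 3.05 and 1.66 on the log2 scale. The heme breakdown and iron storage list had median log2 ratios with DSF of 0.21 with LPS and 0.26 with IL4CD40. In this list 4 of 9 genes were 2-fold or more higher and 3 lower under each stimulus. These 9 genes include Slc40a1, which the medians of the first experiment left out, so the medians of the 2 experiments do not cover the same genes. NADPH supply had medians of -0.9 and -1, with 0 of 7 genes 2-fold higher and 3 and 4 lower. Slc40a1 was at -1.29 and -1.12, and Keap1 at -1.07 and -1.24. Taldo1 (-0.45 and -0.27) and Akr7a5 (0.2 and 0.41) had the opposite sign to the first experiment. Txn1 (0.31 and 0.24) and Prdx1 (0.54 and 0.24) changed less than in it. Fth1 (2.65 and 3.02), Sqstm1 (3.18 and 3.15) and Maff (5.86 and 4.88) were again 2-fold or more higher. This is not a full list of the redox genes that differed or stayed alike. Whether the experiments differ beyond replicate spread cannot be tested with 1 library per condition.

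Ibrutinib at the same 1 µM left each of the 10 genes within 2-fold of the stimulus alone. The log2 ratios ran from -0.76 (Osgin1) to 0.34 (Hmox1) with LPS and from -0.64 (Srxn1 and Osgin1) to 0.04 (Slc7a11) with IL4CD40. Of all genes, 2.81% were 2-fold or more higher and 2.47% lower with ibrutinib under LPS, and 2.23% and 1.69% under IL4CD40. Hmox1 was at 65.6 CPM with LPS and ibrutinib, against 1960 CPM with LPS and DSF. The unstimulated library of the second experiment had Hmox1 at 66.5 CPM, Srxn1 at 21.9 CPM and Slc7a11 at 7.72 CPM, so its Srxn1 and Slc7a11 lay between the 2 unstimulated pairs of the first experiment.

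**Figure D4:**
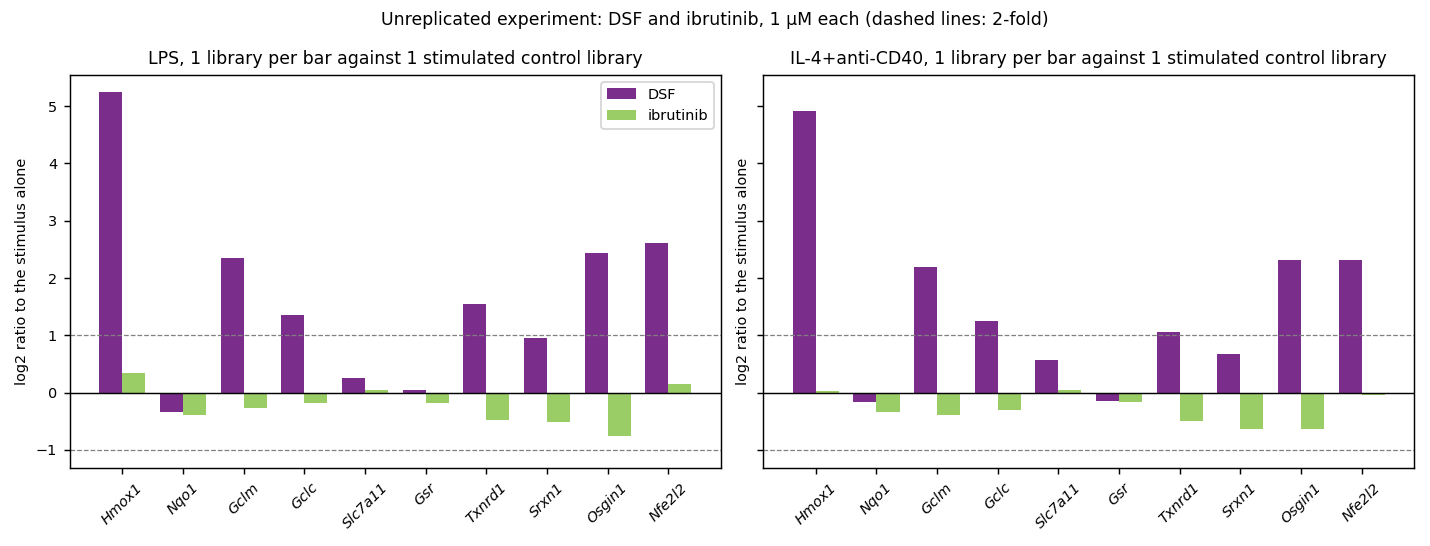
Log2 ratio of each gene to the stimulus alone in the second experiment, for 1 µM DSF and 1 µM ibrutinib, with LPS on the left and IL4CD40 on the right, each bar 1 library against 1 and dashed lines at 2-fold. DSF bars pass 2-fold for 6 genes in each panel and ibrutinib bars for 0.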

How the data were processed

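RNA-seq of mouse splenic B cells was analysed in 20 libraries (5 groups of 4) of the first experiment and 7 single libraries of the second. The authors trimmed reads with Fastp, aligned them to mm10 with HISAT2 2.0.5 and counted them per gene with featureCounts 1.5.0-p3 (versions from the submitters' processing notes). The deposited counts are raw, and the deposited FPKM were made by the authors from counts and gene length. The annotation release and strand setting are not given in the sources used here. Counts of the 2 groups compared (4 groups for the difference between stimuli) were filtered with filterByExpr, scaled by TMM and tested with edgeR 4.0.16's quasi-likelihood test in R 4.3.3, with Benjamini-Hochberg adjustment over all genes tested and a threshold of 0.05. SE is the absolute log2 fold change over the square root of F. For the second experiment, log2 ratios of TMM-scaled counts used a prior count of 2, genes averaging 10 counts or more, and 2-fold as the limit. Depth was 17804851 to 23632992 and 16049295 to 24619776 counts.

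The 10 genes and the gene lists were chosen with earlier results of these data known. Named genes were all 10 members, any tested regulator of NRF2, up to 3 genes per direction, list and DSF comparison by size of change among those called without overlap, and the 3 most alike profiles per member. Genes outside this rule are said to be so or are marker genes. Alternatives were DESeq2 1.42.0, other scalings, filters, sample sets and a replicate block. The test was tested on simulated data, where edgeR called 200 of 200 changed genes in the comparison of DSF with LPS (14154 genes) and 190 of 200 for the difference between stimuli (15130 genes).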

Additional observations from a re-analysis of the deposited data

Results flagged for a closer look

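A test of the difference itself set apart the DSF effects under the 2 stimuli for 4 of the 10 genes. Of all genes tested, 7.92% had a positive and 6.96% a negative difference past the threshold. The log2 fold change with DSF was larger with LPS than with IL4CD40 by 3.06 for Hmox1, by 1.39 for Nqo1, by 1.21 for Gclm and by 1.08 for Txnrd1 (edgeR's quasi-likelihood test, adjusted p 0.0149, 0.00878, 0.0424 and 0.00429, 4 libraries in each of 4 groups). Their vehicle levels with IL4CD40 differed between replicates 1, 2 and 3, 4, and the part of that split in these differences was not tested beyond the fits without those replicates. Without replicates 3 and 4 of every group, Hmox1 and Gclm did not pass. Gclm also lost its call in 14 of the 16 fits that left out 1 library. With all 20 libraries in a single fit none of the 10 genes passed, where only 205 of 15575 genes tested were higher and 710 lower.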

How the results depend on the processing

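The calls of all 10 genes with DSF were kept in every fit that left out 1 library, under each stimulus. Comparisons with unstimulated cells, between the stimuli alone and of the DSF effect between stimuli depended on the libraries used, and the cause was not tested. Over all single-gene results and alternatives, 1099 kept direction and side of the threshold, 50 came to pass it, 68 no longer passed, 41 changed sign and 20 values without a test moved. Of counts of genes, 226 stayed within 1.5 times and 43 did not.

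For LPS against unstimulated cells, the 2 genes higher became 1 with a minimum absolute log2 fold change of 1 and 0 with scaling by total counts, where Gclm went from 0.04 to -0.2. With total counts 2903 of 14477 genes tested were higher, against 4283 in the main fit. The share of all genes with that minimum was not counted. The 2 lower became 1 with that minimum, 1 with all 20 libraries in a single fit and 1 with the replicate block. Of all genes, 5355 of 15575 were lower in that single fit and 4367 of 14477 with the block. For LPS against IL4CD40, the 1 gene higher became 2 with all genes with any count, 2 in the fit of all 20 libraries and 2 with the block. Of all genes, 3279 of 26897, 2774 of 15575 and 2973 of 14078 were higher in these fits. For the difference between stimuli, the 4 higher became 0 in the fit of all 20 libraries, and the 0 lower became 1 with all genes with any count. Of all genes, 205 of 15575 were higher in the former fit and 1167 of 29710 lower in the latter. With the longer core, in which an A follows, 1 rather than 4 genes had an element in their windows.

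Same-numbered replicates correlated at -0.0688 to 0.197 in their deviations from group means, so the numbers were not taken as pairs. With the replicate block, IL4CD40 against unstimulated cells had 1 gene higher rather than 4, where 4172 of 14433 genes tested were higher. Under the block the log2 fold changes of Srxn1 (1.43) and Slc7a11 (1.13) there, and of Nqo1 (0.26) and Srxn1 (1.32) with LPS, turned positive without passing. Hmox1 in LPS against IL4CD40 (-2, adjusted p = 0.0526) and Gclm in the difference between stimuli (1.1, adjusted p = 0.0515) no longer passed with the block, nor in the fit of all 20 libraries did Txnrd1 in LPS against IL4CD40 (adjusted p = 0.113) and Gsr in LPS against unstimulated cells (adjusted p = 0.0625).

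The next settings were chosen after seeing the data. For them, and for the fits that left out 1 library, the shares of all genes called were not counted. The counts of genes therefore show only how far the results depended on the libraries. Without replicates 1 and 2 of every group, LPS against unstimulated cells had 8 genes higher and 0 lower, with Hmox1 at 1.46, Nqo1 at 1.55 and Srxn1 at 5.75. IL4CD40 against unstimulated cells then had 10 higher, with Srxn1 at 6.25, Slc7a11 at 6.34, Gsr at 0.61, Osgin1 at 1.09 and Nfe2l2 at 0.43. LPS against IL4CD40 had 8 lower, and the difference between stimuli had 8 higher and 1 lower, with Gsr at 0.04. Without replicates 3 and 4 of every group, LPS against unstimulated cells had 4 higher and 6 lower, with Gclm at -0.51. IL4CD40 against unstimulated cells had 2 higher and 6 lower, with Hmox1 at -2.19 and Gclm at -0.12. LPS against IL4CD40 had 4 higher, with Gclc at 0.2, Srxn1 at 0.47, Osgin1 at 0.7 and Nfe2l2 at 0.13, and the difference between stimuli had 2 higher and 2 lower, with Srxn1 at -0.14 and Osgin1 at -0.83.

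Leaving out 1 library at a time, LPS against unstimulated cells had 1 to 3 genes higher (1 without unstimulated replicate 3 or 4 or any LPS replicate) and 0 to 3 lower (0 without unstimulated replicate 1 or 2 or LPS replicate 1 or 4, and 1 without LPS replicate 2). Log2 fold changes there ran from -0.33 to 0.4 for Nqo1, -0.16 to 0.28 for Gclm and -0.78 to 0.23 for Srxn1. IL4CD40 against unstimulated cells had 1 to 4 higher (1 without unstimulated replicate 3 or IL4CD40 replicate 3 or 4, and 2 without unstimulated replicate 4), with -0.67 to 0.35 for Srxn1, -0.76 to 0.36 for Slc7a11, -0.27 to 0.09 for Gsr, -0.84 to 0.03 for Osgin1 and -0.19 to 0.06 for Nfe2l2. LPS against IL4CD40 had 1 to 2 higher (2 without IL4CD40 replicate 3 or 4), with -0.23 to 0.15 for Srxn1, and the difference between stimuli had 0 to 1 lower (1 without IL4CD40 replicate 4).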
